A study of Danio rerio with 7 samples.

Results

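The DEAD and DEAH box RNA helicases are the genes of the deposited table whose name starts with ddx or dhx followed by a digit, in either case. The rule takes 49 of 33735 genes, 32 of them with a ddx name and 17 with a dhx name, and it uses names only, no measured value. The expression table covers sox10-expressing cells sorted from zebrafish (Danio rerio) embryos, in 3 groups of 2 libraries. The first group are embryos injected with a ctr9 morpholino and exposed to 32 µM progesterone, with 1 library each from experiments 1 and 2. The second are embryos injected with the same morpholino and kept in the solvent DMSO, again from experiments 1 and 2. The third are uninjected embryos in DMSO, whose columns are named by 5 and 10 ng and carry no experiment number. Per the labels, all embryos were raised at 28 °C and exposed between 50% epiboly and the stage of 15 somites. The uninjected embryos received no control morpholino, so injection itself and the action on ctr9 cannot be told apart. An uninjected sample in progesterone is also labelled and was not analysed here, so every progesterone value comes from morpholino-injected embryos. The labels do not tie the libraries of a group to separate clutches, so a p-value here covers no more than the spread between libraries, part of which may be technical.

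DEAD and DEAH box proteins are enzymes that bind RNA and use ATP to open RNA duplexes or to strip proteins from RNA, and both names spell a conserved amino acid motif of the ATP-binding core. DEAD box members usually pry apart short helices locally, while DEAH box members move along a strand. They work at almost every step of an RNA's life: assembly of ribosomes in the nucleolus, splicing, export through the nuclear pore, translation and decay. Ddx21 is a nucleolar member that in human cells binds ribosomal RNA, small nucleolar RNA and the 7SK RNA, and the study is about its part in the response to nucleotide shortage. Ctr9, the target of the morpholino, belongs to the PAF1 complex, which accompanies RNA polymerase II along genes.

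The family was sorted by known function into 14 genes of ribosome biogenesis, 13 of splicing, 4 of mRNA export, 8 of translation and decay, 2 of mitochondria, 1 named in the germline, 1 RNA sensor and 6 others. The roles named are known mainly from human cells and yeast, and the placing of some members is uncertain, among them dhx57 and ddx1 in translation and decay. A mean of at least 1 FPKM over the 6 libraries was required for testing, and 46 members passed. FPKM counts fragments relative to transcript length and to the size of the library, so levels of different genes can be compared. The 3 below that level were the RNA sensor dhx58, dhx32b and a second entry named ddx41. The rule misses relatives with other names, among them pl10, vasa and the eif4a genes, and it takes in ddx26b, whose present name in the human-linked name table, INTS6L, is that of an Integrator complex subunit.

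The libraries set limits on every value. Summed FPKM was 360250 and 218077 in progesterone-treated morphants, 360406 and 356240 in DMSO-treated morphants, and 366907 and 356945 in uninjected embryos, and the number of sequenced fragments is unknown. Small non-coding RNA took 20.5% and 30.3% of the sum in progesterone-treated morphants, against 12.5% to 16.0% in the other 4 libraries. Spike-ins summed to 172.9 and 69.3 FPKM in progesterone-treated morphants and to 229.1 and 139.4 FPKM in DMSO-treated morphants. In uninjected embryos they summed to 1.96 and 22.4 FPKM. A difference in preparation between uninjected and morphant libraries thus cannot be told apart from the morpholino either. The median of all 13155 tested genes was lower with progesterone, by 0.58 against DMSO-treated morphants and by 0.67 against uninjected embryos on the log2 scale. Each fold change is therefore also given relative to that median, and scaling the libraries by median-ratio size factors brought the 2 medians to -0.09 and -0.10. In the morpholino comparison in DMSO the median was -0.07, and 0.01 after scaling. The targeted gene ctr9 stood at 26.2 and 20.6 FPKM in progesterone-treated morphants, at 42.2 and 36.7 FPKM in DMSO-treated morphants, and at 16.8 and 19.9 FPKM in uninjected embryos. Because a morpholino acts on translation or splicing, these mRNA levels do not test the label. Sox10 itself was at 60.0 FPKM or more in every library. A list of 7 neural crest markers, 6 of them in the table, summed to 786 and 267 FPKM in progesterone-treated morphants, with foxd3 near 0. The sums were 439 and 408 FPKM in DMSO-treated morphants, and 479 and 528 FPKM in uninjected embryos. With progesterone against DMSO in morphants, all 5 tested markers lay above the median gene, by a median of 0.91. Neural markers (5 genes) summed to 14.1 and 10.1 FPKM in progesterone-treated morphants, 101 and 80.4 FPKM in DMSO-treated morphants, and 48.9 and 72.6 FPKM in uninjected embryos. Epidermal markers (5 genes) summed to 21 and 18.9 FPKM in progesterone-treated morphants, 40.7 and 108 FPKM in DMSO-treated morphants, and 31.9 and 39.1 FPKM in uninjected embryos. Endothelial markers (3 genes) summed to 12.8 and 3.10 FPKM in progesterone-treated morphants, 35.5 and 22.4 FPKM in DMSO-treated morphants, and 46.3 and 60.1 FPKM in uninjected embryos. Otic markers (6 genes) summed to 21.3 and 17.3 FPKM in progesterone-treated morphants, 22.9 and 14.6 FPKM in DMSO-treated morphants, and 48.7 and 43.1 FPKM in uninjected embryos. The similar otic sums of the morphant groups hide opposite moves. Oc90 had 16.9 and 12.7 FPKM with progesterone and 7.12 and 5.02 FPKM in DMSO-treated morphants. Dlx3b was listed at 0 in both progesterone libraries and had 6.89 and 2.38 FPKM in DMSO-treated morphants. Notochord markers (5 genes, 4 in the table) summed to 4.66 and 6.84 FPKM in progesterone-treated morphants, 13.1 and 15.0 FPKM in DMSO-treated morphants, and 4.46 and 5.30 FPKM in uninjected embryos. Several of these lists thus move with the groups compared. Only fli1a of the endothelial list and ctgfa of the notochord list had a mean of at least 1 FPKM. The differences in those sums thus come mainly from 1 gene each and do not show a cell type. The other endothelial genes stood at most at 0.574 FPKM in any library, and the other notochord genes at most at 1.74 FPKM. Muscle and blood markers summed to at most 2.48 FPKM. The part that these marker differences have in any helicase value was not tested, and in sorted bulk cells fewer cells of a type and less RNA per cell cannot be told apart.

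Helicase mRNA was abundant and uneven within the family. The median tested member stood at 9.72 and 6.74 FPKM in progesterone-treated morphants, at 12.9 and 11.6 FPKM in DMSO-treated morphants, and at 12.4 and 14.0 FPKM in uninjected embryos. In each library that median lay above 71.9% to 74.5% of all tested genes. A few genes took much of the signal. The 5 members highest by mean over the 6 libraries were ddx5, ddx39aa, ddx39ab, ddx21 and dhx15. They held 48.4% and 45.7% of the family's summed FPKM in progesterone-treated morphants, and 56.9% and 54.2% in DMSO-treated morphants. In uninjected embryos they held 54.3% and 54.9%. Dhx15 ranked 8 and 7 within the family in the progesterone libraries, so these 5 were not the highest there. The family as a whole summed to 951.2 and 578.8 FPKM in progesterone-treated morphants, 1303 and 1108 FPKM in DMSO-treated morphants, and 1241 and 1382 FPKM in uninjected embryos. As a share of all FPKM outside small non-coding RNA and spike-ins, that was 0.332% and 0.381% with progesterone. The share was 0.425% and 0.370% in DMSO-treated morphants, and 0.387% and 0.460% in uninjected embryos. The progesterone range thus overlaps that of the DMSO-treated morphants and lies below that of the uninjected embryos.

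**Figure D1:**
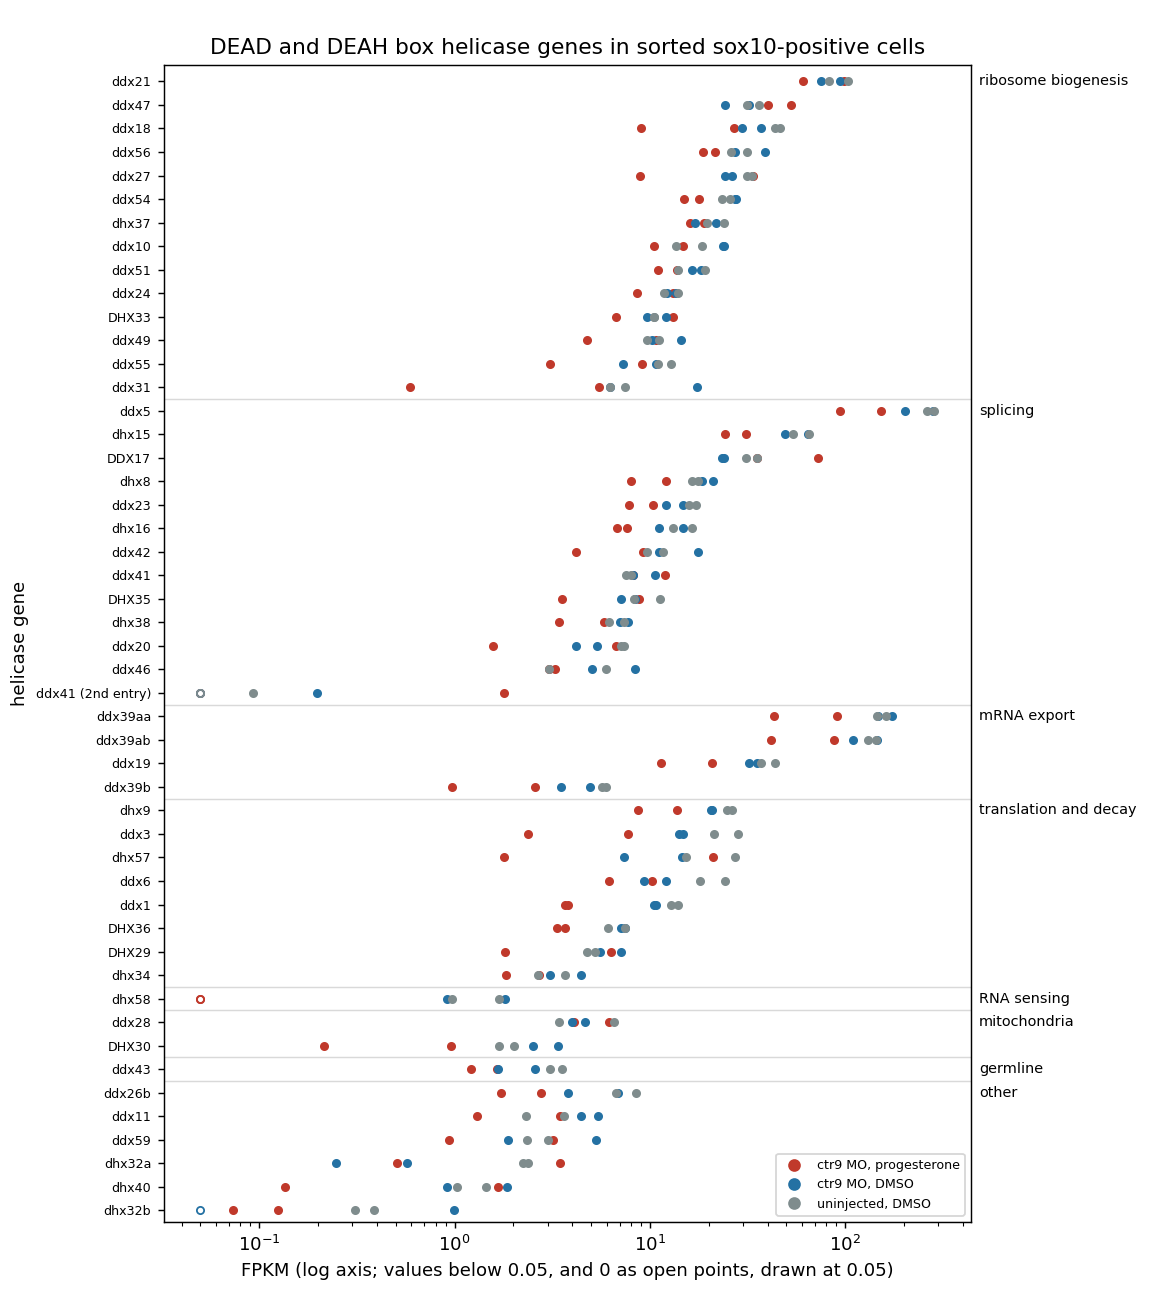
FPKM of the 49 helicase genes in the 6 libraries, on a log axis, grouped by role; red points are the progesterone-treated morphants, blue points the DMSO-treated morphants and grey points the uninjected embryos, and open points mark a listed 0. Ddx5 is the highest member in all 6 libraries, and the mRNA export genes ddx39aa and ddx39ab are among the next highest.

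Ddx5 (ENSDARG00000038068), a splicing and transcription cofactor, had the highest FPKM of the family in all 6 libraries. It stood at 153 and 94.4 FPKM in progesterone-treated morphants, at 283 and 202 FPKM in DMSO-treated morphants, and at 262 and 286 FPKM in uninjected embryos. Next by mean came the near-identical pair ddx39aa and ddx39ab, zebrafish relatives of the mRNA export helicase that acts in the TREX complex. Ddx39aa had 90.2 and 43.1 FPKM in progesterone-treated morphants, 174 and 147 FPKM in DMSO-treated morphants, and 145 and 162 FPKM in uninjected embryos. Fragments shared between the pair could be split either way by the authors' counting, so their separate levels are uncertain. The germline name ddx43 stood at 1.21 to 3.55 FPKM across the 6 libraries, and vasa, the defining germ cell helicase, at no more than 0.376.

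Ddx21 (ENSDARG00000063626) had the next highest mean FPKM after ddx5 and the ddx39a pair. It had 98.8 and 60.9 FPKM in progesterone-treated morphants, 75.5 and 94.4 FPKM in DMSO-treated morphants, and 82.6 and 103.8 FPKM in uninjected embryos, and the 3 groups overlapped. Its place within a library is free of the scaling. Within the family ddx21 ranked 2 in both progesterone libraries, behind ddx5, and 4 in each of the other 4 libraries. It lay above 97.3% and 97.1% of all tested genes in progesterone-treated morphants, 95.7% and 97.0% in DMSO-treated morphants, and 96.1% and 96.5% in uninjected embryos. After median-ratio scaling its values were 105.7 and 104.7 in progesterone-treated morphants, 60.6 and 86.3 in DMSO-treated morphants, and 68.7 and 78.9 in uninjected embryos, and the progesterone pair then lay above the other 4. Such a place was common after scaling. Of all tested genes, 19.7% were higher without overlap than in DMSO-treated morphants, and 20.9% than in uninjected embryos. The log2 fold change of ddx21 with progesterone against DMSO in morphants was -0.12 ± 0.34 as deposited (SE, n = 2 against 2, limma with Benjamini-Hochberg adjusted p = 0.848) and 0.53 ± 0.24 after scaling (limma adjusted p = 0.33), so its sign depends on the scaling. Over every alternative run for that value, its adjusted p ranged from 0.19 to 0.973. Against uninjected embryos the change with morpholino and progesterone was -0.25 ± 0.34 (limma adjusted p = 0.647) as deposited and 0.51 ± 0.24 after scaling. For the morpholino in DMSO it was -0.13 ± 0.34 (limma adjusted p = 1) and -0.03 ± 0.24 after scaling.

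**Figure D2:**
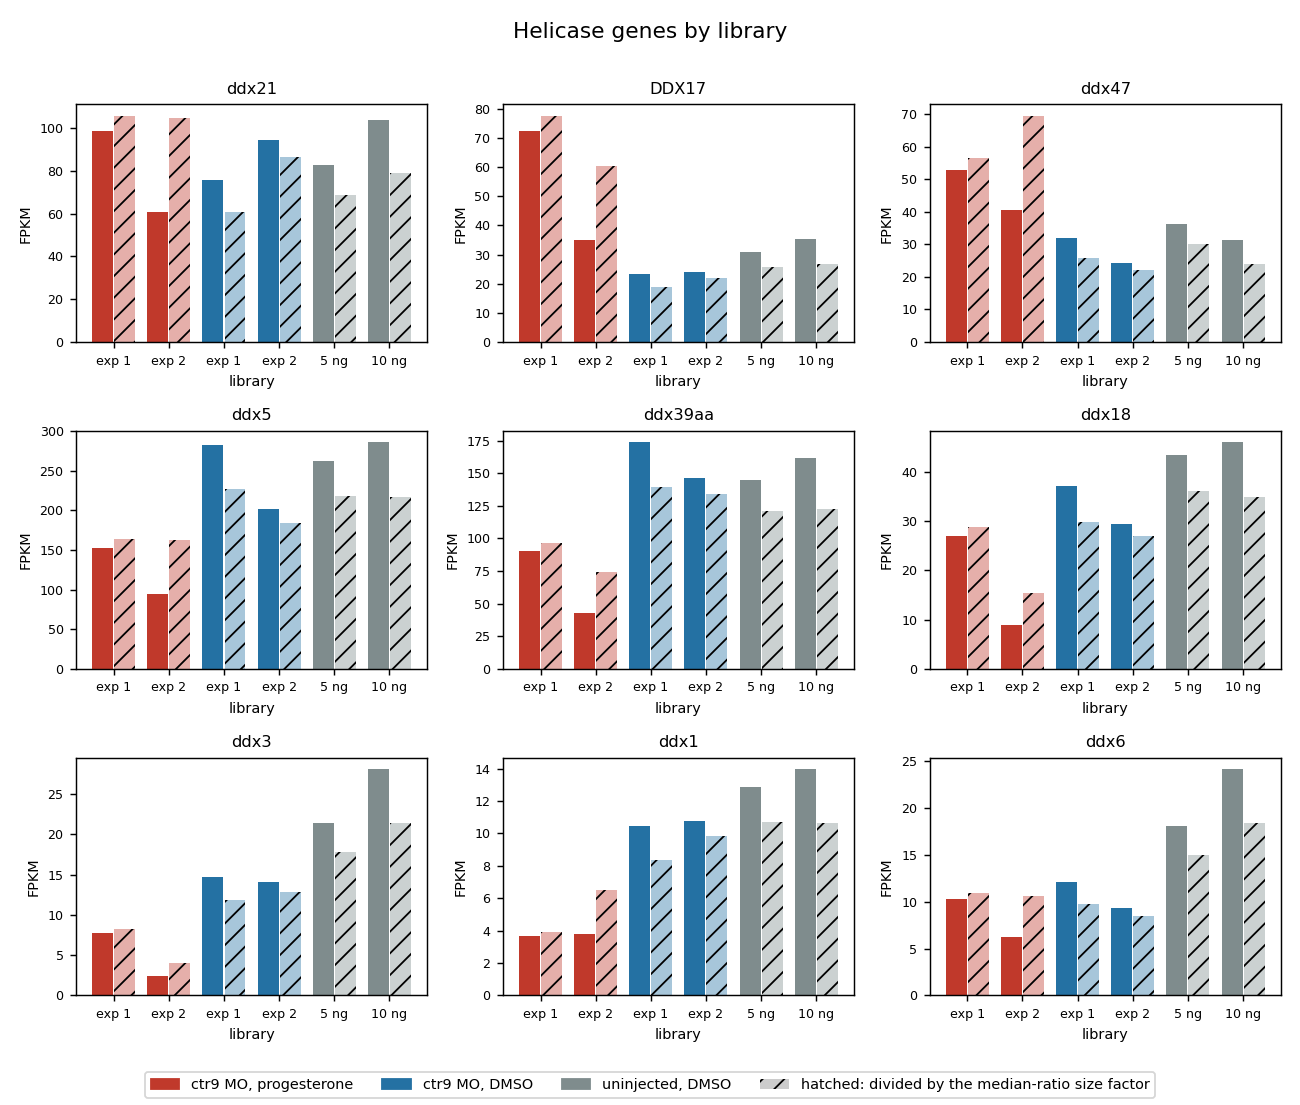
FPKM of 9 helicase genes in each of the 6 libraries, progesterone-treated morphants on the left, DMSO-treated morphants in the middle and uninjected embryos on the right; solid bars are the deposited values and hatched bars the values after median-ratio scaling. The solid bars of DDX17 and ddx47 are higher in both progesterone libraries than in both libraries of DMSO-treated morphants, those of ddx3, ddx1, ddx5 and ddx39aa are lower, and those of ddx21 overlap.

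The comparison of ctr9 morphants with uninjected embryos, both in DMSO, asked what the morpholino does to these genes. No helicase passed the test: 0 of 46 members were called at a limma adjusted p of at most 0.05, where 0% of all tested genes were called higher and 0.0152% lower. At an unadjusted p under 0.05, 0 members were higher and 1 was lower, against 1.45% and 2.67% of all tested genes. The 1 member was ddx6, which represses translation and feeds mRNA into decapping. It had 12.1 and 9.30 FPKM in DMSO-treated morphants and 18.1 and 24.2 FPKM in uninjected embryos, and the groups did not overlap. Its log2 fold change was -0.92 ± 0.38 (SE, n = 2 against 2, limma adjusted p = 1), or -0.84 relative to the median gene.

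By role, members of ribosome biogenesis had a median log2 fold change of 0.02 in morphants and splicing members -0.13, against -0.07 for all tested genes. The ribosome group spread around its median. Ddx10, needed for the small ribosomal subunit, had 23.9 and 23.6 FPKM in DMSO-treated morphants and 13.6 and 18.5 FPKM in uninjected embryos (0.55 ± 0.34). Ddx18, which works on the large subunit, had 37.2 and 29.6 FPKM in DMSO-treated morphants against 43.6 and 46.1 FPKM in uninjected embryos (-0.42 ± 0.51). Neither pair of groups overlapped, and neither change passed the test. The 8 translation and decay members had a median of -0.30. Ddx3, a translation factor known in human cells for mRNAs with structured leaders, stood at 14.7 and 14.1 FPKM in DMSO-treated morphants and at 21.4 and 28.1 FPKM in uninjected embryos (-0.73 ± 0.50). The export members had a median of -0.18.

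Outside these groups, the lowest fold change was that of dhx32a, with 0.569 and 0.248 FPKM in DMSO-treated morphants and 2.38 and 2.23 FPKM in uninjected embryos (-1.24 ± 0.60, limma adjusted p = 1). The highest was that of ddx11, a DNA helicase of sister chromatid cohesion, with 4.44 and 5.43 FPKM in DMSO-treated morphants and 2.32 and 3.64 FPKM in uninjected embryos (0.59 ± 0.46). The mitochondrial ribosome factor DHX30 had 2.52 and 3.39 FPKM in DMSO-treated morphants and 1.69 and 2.01 FPKM in uninjected embryos (0.47 ± 0.44). In all, 7 of 46 members were higher in both morphant libraries than in both uninjected ones, where 16.5% of all tested genes were. Another 15 were lower without overlap, against 26.1% of all tested genes. Median-ratio scaling turned these counts to 14 and 13, against 22.7% and 22.0% of all tested genes.

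The comparison of progesterone with DMSO in ctr9 morphants asked what the steroid does when ctr9 is targeted. The helicases stood mostly lower in FPKM with progesterone, and so did the typical gene: the family median was -0.68 and that of all tested genes -0.58 on the log2 scale. Of 46 members, 0 passed a limma adjusted p of at most 0.05, and 0 of all tested genes did (0% in either direction). At an unadjusted p under 0.05, 1 member was higher and 14 were lower, against 1.88% and 19.8% of all tested genes. After median-ratio scaling the unadjusted counts were 2 higher and 3 lower, against 7.24% and 9.71%, and 0 members passed with adjustment, where 0.0076% of all tested genes were called higher and 0% lower. Relative to the median gene, 20 of 46 members were above it.

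DDX17 and ddx47 stood higher with progesterone in both libraries. DDX17 (ENSDARG00000010873), the close relative of ddx5 in splicing and transcription, had 72.6 and 35.1 FPKM in progesterone-treated morphants against 23.5 and 23.9 FPKM in DMSO-treated morphants. Uninjected embryos had 30.9 and 35.3 FPKM. Its log2 fold change was 1.06 ± 0.40 (SE, n = 2 against 2, limma adjusted p = 0.205), 1.64 relative to the median gene, and 1.71 ± 0.23 after scaling (limma adjusted p = 0.124). The adjusted p ranged from 0.0631 to 0.549 over the alternatives. The fold change of DDX17 was 0.55 when the experiment 1 progesterone library was left out, and 1.58 when the experiment 2 library was. Ddx47, a nucleolar helicase of small-subunit processing, had 52.9 and 40.4 FPKM in progesterone-treated morphants against 32.0 and 24.3 FPKM in DMSO-treated morphants, with 36.3 and 31.4 FPKM in uninjected embryos. Its log2 fold change was 0.71 ± 0.31 (limma adjusted p = 0.249), or 1.29 relative to the median gene. DDX17 and ddx47 were the 2 members higher in both progesterone libraries than in both DMSO morphant libraries, where 6.86% of all tested genes were. After scaling there were 10, against 19.7%. Dhx32a was the only other member more than 1 above the median gene, at 1.47 with a standard error of 0.60. It had 3.46 and 0.507 FPKM in progesterone-treated morphants and 0.569 and 0.248 FPKM in DMSO-treated morphants, and these groups overlapped. Within the family DDX17 ranked 5 and 6 in progesterone-treated morphants, against 13 and 12 in DMSO-treated morphants and 10 and 8 in uninjected embryos.

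On the lower side, 27 members did not overlap, against 44.5% of all tested genes, and 14 after scaling, against 24.8%. The 4 export helicases were all among the 27, and none of the 4 was above the median gene: their median log2 fold change was -1.06, or -0.48 relative to the median gene. Ddx39aa was lowest of them (-1.34 ± 0.39, or -0.76 relative to the median gene, limma adjusted p = 0.16). The lower quartile of all tested genes was -1.07, next to the export median. Ddx39aa and ddx39ab may share fragments, so the 4 are not wholly separate observations. Ddx19 releases mRNA from its proteins at the nuclear pore. It had 20.8 and 11.4 FPKM in progesterone-treated morphants and 35.4 and 32.2 FPKM in DMSO-treated morphants. Its log2 fold change was -1.08 ± 0.37, or -0.50 relative to the median gene. The 8 translation and decay members had a median of -0.19 relative to the median gene. Ddx1, a member of the tRNA ligase complex, had 3.65 and 3.80 FPKM in progesterone-treated morphants and 10.4 and 10.8 FPKM in DMSO-treated morphants. With a log2 fold change of -1.29 ± 0.31 it had the smallest p of the family on the deposited scale (limma adjusted p = 0.154). Relative to the median gene it was at -0.71. After scaling its change was -0.73 ± 0.32 (limma adjusted p = 0.315), and the smallest p of the family was then that of DDX17. Ddx3 had 7.76 and 2.37 FPKM in progesterone-treated morphants and 14.7 and 14.1 FPKM in DMSO-treated morphants (-1.50 ± 0.50, limma adjusted p = 0.179). Relative to the median gene, ddx3 was at -0.92. With each library left out, the log2 fold change ranged from -2.19 to -0.81 for ddx3 and from -1.87 to -0.82 for ddx39aa, and from -1.32 to -1.27 for ddx1.

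The splicing members had a median of -0.10 relative to the median gene, with 5 of 12 above it. Dhx15, which takes spliceosomes apart after splicing and also acts on ribosome precursors, had 30.9 and 24.4 FPKM in progesterone-treated morphants and 64.3 and 49.0 FPKM in DMSO-treated morphants (-1.01 ± 0.31). Ddx5 had a log2 fold change of -0.99 ± 0.33 (limma adjusted p = 0.183), and of -1.33 to -0.64 with each library left out. Neither gene's groups overlapped on the deposited scale. Relative to the median gene, dhx15 was at -0.42 and ddx5 at -0.40. Ribosome biogenesis members stood at the median gene (0.02 relative to it, 7 of 14 above). Their lowest was ddx31, with 5.50 and 0.588 FPKM in progesterone-treated morphants and 17.4 and 6.27 FPKM in DMSO-treated morphants (-1.85 ± 0.76, limma adjusted p = 0.227). Relative to the median gene, ddx31 was at -1.26. With each library left out, ddx31 ranged from -2.86 to -0.83, and over all alternatives its limma adjusted p ranged from 0.0315 to 0.657, lowest without the progesterone library of experiment 1. In the mitochondria, DHX30 had 0.961 and 0.215 FPKM in progesterone-treated morphants and 2.52 and 3.39 FPKM in DMSO-treated morphants (-1.35 ± 0.44). Relative to the median gene, DHX30 was at -0.77.

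The 2 progesterone libraries differed from each other. Among the 46 members the median absolute difference was 0.69 on the log2 scale between them, 0.32 between the DMSO morphant libraries and 0.22 between the uninjected libraries, and 40 of 46 members were higher in the library of experiment 1. The median over all tested genes differed in the same direction between the progesterone libraries, by 0.54 against 0.64 for the members. All tested genes spread more, with a median absolute difference of 0.78 on the log2 scale. Without the progesterone library of experiment 1, 20 members passed as lower than in DMSO-treated morphants at a limma adjusted p of at most 0.05, where 28.4% of all tested genes did, and 0 passed as higher (1.79%). Without that of experiment 2, 0 members passed in either direction (0.144% of all tested genes higher and 0.0228% lower). In these fits the lone progesterone library is assumed to vary like the other groups.

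**Figure D3:**
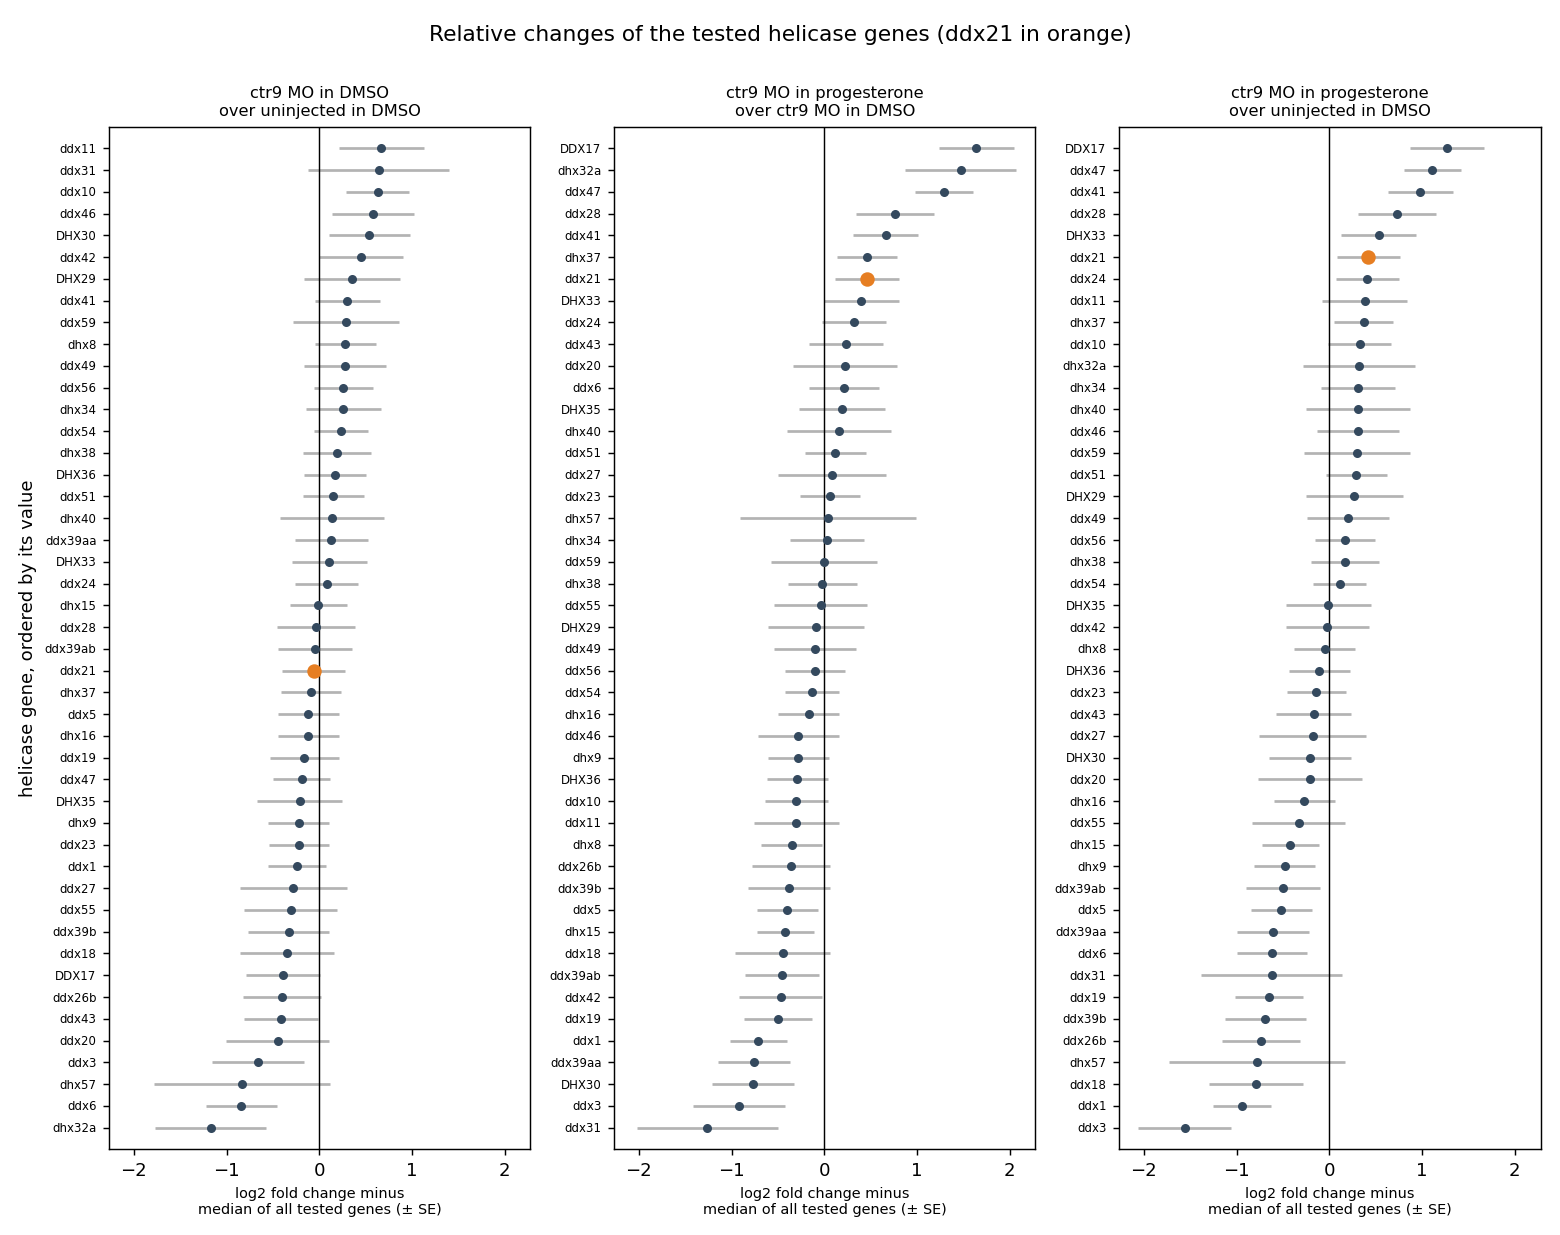
Log2 fold change of each tested helicase relative to the median of all tested genes, ordered by its value, for the 3 comparisons; bars are standard errors (n = 2 libraries against 2), and the orange point is ddx21. The standard errors draw on a spread shared by all 3 groups. With progesterone, DDX17 and ddx47 lie 1.64 and 1.29 above the median gene in the comparison with DMSO-treated morphants, and the 4 export helicases lie below it.

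The comparison of progesterone-treated morphants with uninjected embryos spans both treatments at once, and it shares libraries with the other 2 comparisons. At a limma adjusted p of at most 0.05, 0 of 46 members passed, where 0% of all tested genes were called higher and 0.0152% lower. Unadjusted, 0 members were higher and 14 lower at p under 0.05, against 1.77% and 23.0% of all tested genes, and 3 and 3 after scaling, against 7.28% and 8.98%. With adjustment 0 members passed after scaling, where 0.0456% of all tested genes were called higher and 0.0228% lower. Ddx3 was the lowest, with 7.76 and 2.37 FPKM in progesterone-treated morphants and 21.4 and 28.1 FPKM in uninjected embryos (-2.23 ± 0.50, or -1.56 relative to the median gene, limma adjusted p = 0.116). Ddx1 had 3.65 and 3.80 FPKM in progesterone-treated morphants and 12.9 and 14.0 FPKM in uninjected embryos (-1.61 ± 0.31, limma adjusted p = 0.111). Both genes held a middle place in the DMSO-treated morphants. Ddx3 lay above 66.1% and 47.6% of all tested genes in progesterone-treated morphants, 76.5% and 78.3% in DMSO-treated morphants, and 84.6% and 87.4% in uninjected embryos, and these ranges did not overlap.

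Ribosome biogenesis members were 0.24 above the median gene, with 10 of 14 above it, while the 4 export members were 0.63 below and the 8 translation and decay members 0.55 below. A separate list of 48 tested nucleolar genes, without ddx21, lay the other way. Its median was -0.30 relative to the median gene, with 15 of 48 above it. Ddx18 stood at 26.9 and 8.95 FPKM in progesterone-treated morphants and at 43.6 and 46.1 FPKM in uninjected embryos (-1.46 ± 0.51, limma adjusted p = 0.164). Its fold change was -2.20 when the experiment 1 progesterone library was left out, and -0.71 when the experiment 2 library was. Over all alternatives its limma adjusted p ranged from 0.00825 to 0.616. Without overlap, 2 members were higher, ddx41 and ddx47, where 5.94% of all tested genes were, and 27 were lower, against 53.0%. Ddx41, a spliceosome component also described as a sensor of DNA, had 12 and 8.19 FPKM in progesterone-treated morphants, 8.19 and 10.6 FPKM in DMSO-treated morphants, and 7.56 and 8.04 FPKM in uninjected embryos (0.31 ± 0.35 against uninjected embryos, limma adjusted p = 0.581). After scaling, 11 were higher and 14 lower without overlap, against 20.9% and 27.4%. Without the progesterone library of experiment 1, 18 members passed as lower (31.0% of all tested genes did) and 0 as higher (1.66%). Without that of experiment 2, 0 members passed (0.251% of all tested genes higher and 0.198% lower).

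Ratios between related helicases within a library do not depend on the scaling. These pairs were chosen after their values were seen and have no test. Ddx5 over DDX17 was 2.10 and 2.69 in progesterone-treated morphants, 12 and 8.45 in DMSO-treated morphants, and 8.48 and 8.10 in uninjected embryos. Pl10 (present name ddx3xb) over ddx3 (ddx3xa) was 7.71 and 13.0 in progesterone-treated morphants, 4.36 and 3.70 in DMSO-treated morphants, and 3.41 and 2.68 in uninjected embryos. The 3 groups did not overlap for that pair, and pl10 itself stood at 59.8 and 30.8 FPKM in progesterone-treated morphants, 64.2 and 52.0 FPKM in DMSO-treated morphants, and 72.9 and 75.3 FPKM in uninjected embryos. Ddx61, a relative of ddx6 listed under another name, was 1.81 and 1.27 times ddx6 in progesterone-treated morphants, 3.98 and 4.09 times in DMSO-treated morphants, and 1.92 and 1.70 times in uninjected embryos. Here the DMSO-treated morphants were the group apart. Ddx61 itself had 18.6 and 7.89 FPKM in progesterone-treated morphants, 48.19 and 38.05 FPKM in DMSO-treated morphants, and 34.7 and 41.2 FPKM in uninjected embryos. Its log2 fold change was 0.18 ± 0.44 with the morpholino in DMSO. With progesterone against DMSO in morphants it was -1.73 ± 0.44, or -1.15 relative to the median gene (limma adjusted p = 0.154). Ddx39aa over ddx39ab stayed between 1.03 and 1.35 in all 6 libraries. Reads that both genes of a pair share make each ratio uncertain.

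**Figure D4:**
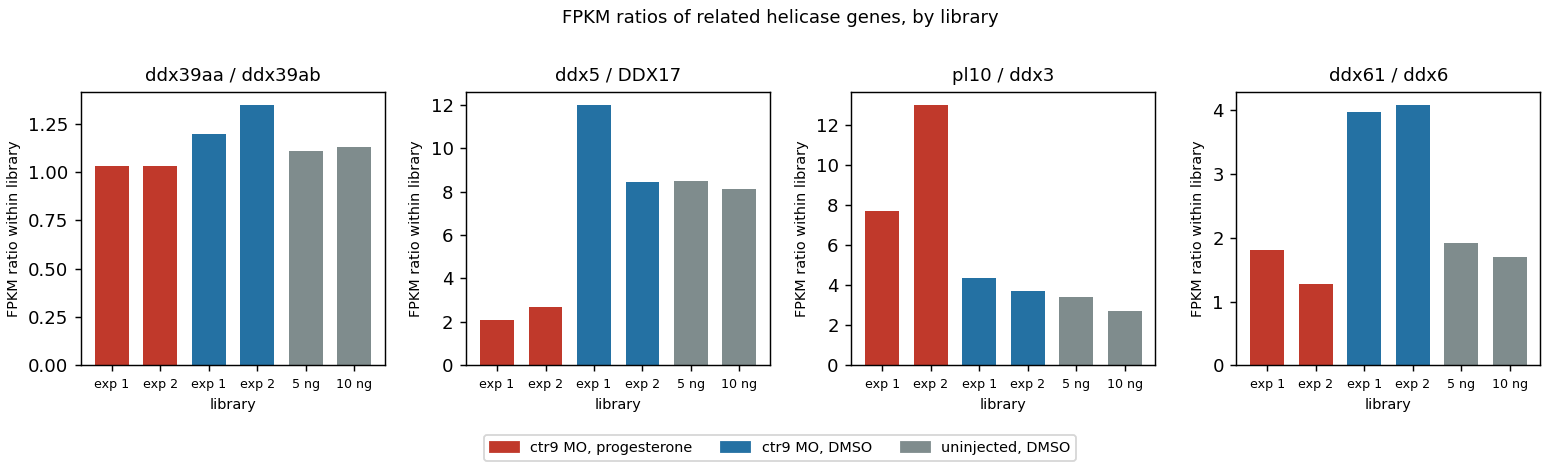
FPKM ratio of 4 pairs of related helicase genes within each of the 6 libraries, progesterone-treated morphants on the left and uninjected embryos on the right. Ddx5 over DDX17 is 2.10 and 2.69 in progesterone-treated morphants and at least 8.10 in the other 4 libraries.

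Genes that work with or near helicases were set beside them. The lists are not wholly separate: wdr43 is in both the nucleolar and the 7SK list. Ddx21 was left out of the nucleolar counts and median. Of 23 tested cofactors of DEAD box proteins, such as exon junction and eIF4F partners, 0 were called in any comparison, and with progesterone against DMSO in morphants their median was -0.23 relative to the median gene. Pdcd4b, an inhibitor of eIF4A, was highest of them in that comparison (0.90 on the log2 scale, limma adjusted p = 0.262). It had 41.8 and 68.9 FPKM in progesterone-treated morphants and 20.7 and 38.7 FPKM in DMSO-treated morphants. Pdcd4a of the same list had 36.1 and 34.0 FPKM in progesterone-treated morphants and 61.7 and 48.2 FPKM in DMSO-treated morphants. The log2 fold change of pdcd4a was -0.62, or -0.04 relative to the median gene. Of 19 tested G-patch proteins, which activate DEAH box helicases, 0 were called. Their median in the same comparison was -0.18 relative to the median gene. The 48 tested nucleolar genes had a median of -0.12 relative to the median gene and 0 calls. Of 18 genes of P-TEFb, 7SK and pause control, 0 were called and the median was -0.24 relative to the median gene. Mepce, which caps 7SK RNA, had 11.4 and 15.7 FPKM in progesterone-treated morphants, 6.66 and 7.39 FPKM in DMSO-treated morphants, and 12.5 and 12.8 FPKM in uninjected embryos. Larp7, which binds 7SK RNA, had 3.23 and 2.69 FPKM in progesterone-treated morphants, 11.8 and 7.48 FPKM in DMSO-treated morphants, and 6.09 and 7.74 FPKM in uninjected embryos. The 20 tested other RNA and DNA helicases had a median of -0.06 relative to the median gene and 0 calls. At an unadjusted p under 0.05 these 5 lists had 0, 0, 0, 1 and 0 members higher and 8, 4, 12, 6 and 5 lower, in the order given, against 1.88% and 19.8% of all tested genes. After median-ratio scaling they had 1, 1, 2, 2 and 0 higher and 3, 2, 1, 2 and 1 lower, against 7.24% and 9.71%.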

How the data were processed

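The authors deposited 1 table of FPKM with gene names and 6 library columns. The unit comes from a stray header line, which was removed (1 line), leaving 33735 genes and 92 spike-ins. The submitters' processing notes name Cufflinks 2.2.1, TopHat2 2.0.11 and cutadapt. They list hg19 beside Zv9 without saying how each was used. Per the labels' protocols, libraries were depleted of ribosomal RNA and read from both ends over 100 bases. The depth is unknown: steps of low values gave relative depths of 1 to 1.47, from few genes. Columns were assigned to groups by name.

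Limma 3.58.1 (R 4.3.3, lmFit and eBayes with a trend) was fitted to log2(FPKM + 1) of the 13155 genes with a mean of at least 1 FPKM, including 10 spike-ins, in 3 groups with 3 residual degrees of freedom. P-values were Benjamini-Hochberg adjusted over all of them. Fold changes on this scale understate those of low genes. An exact test of 2 libraries against 2 cannot go below p = 0.333. The fit was tested on simulated data. The design had counted on 4 groups, and 3 had columns. The rule for naming helicases took ddx21, the 5 highest by mean and the highest of each role. It also took the 6 highest and 6 lowest fold changes of each comparison. Not all of these are given in the text. Ddx18 is also given in the morpholino comparison, where the rule did not take it. The helicases, role groups and partner lists were chosen with earlier results of these data known, and other genes were named after their values were seen. Alternatives were other pseudocounts (0.1 and 5), filters (none, and a mean of 5), 2 scalings, the compared groups alone, a block by experiment number and each library left out. No coordinates or sequences were used here. Of the helicase entries, 42 were found in the name table.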

Additional observations from a re-analysis of the deposited data

How the results depend on the processing

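Call counts changed most when the progesterone group was reduced to its experiment 2 library. That library had the lowest summed FPKM, 218077, and a median-ratio size factor of 0.582. Calls made that way are not separated from a shift of all genes in that library. Scaling was not combined with leaving out the progesterone library of experiment 1. The number of helicases called stayed at 0 in all 3 comparisons under every alternative that kept this library. Without it, 20 were called lower than in DMSO-treated morphants and 18 lower than in uninjected embryos, so the ranges with each library left out were 0 to 20 and 0 to 18. Over all tested genes the calls with each library left out ranged from 0 to 3 with the morpholino in DMSO, from 0 to 3971 with progesterone in morphants, and from 0 to 4301 for progesterone-treated morphants against uninjected embryos. Leaving out the progesterone library of experiment 2 gave 22 and 59 calls in the progesterone comparisons, and doing so together with median-ratio scaling, a setting chosen after seeing the data, gave 25 and 71. In the morpholino comparison the 2 calls became 0 at a pseudocount of 0.1 and 1 with no filter or with a mean of at least 5 FPKM. With progesterone in morphants the 0 calls became 1 with median-ratio scaling and 3 with the sum rescaled without spike-ins and small non-coding RNA. Against uninjected embryos the 2 calls became 0 at a pseudocount of 0.1, 1 with no filter, 28 at a mean of at least 5 FPKM, 9 with median-ratio scaling, 16 rescaled, and 0 with the compared groups alone.

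The family median of -0.68 with progesterone in morphants was -0.41 at a pseudocount of 5, -0.12 with median-ratio scaling, -0.25 rescaled, -0.13 scaled without the progesterone library of experiment 2, and -1.08 to -0.38 with each library left out. Against uninjected embryos the -0.70 became -0.45, -0.05, -0.25 and 0.03 in the same order of settings, and -0.99 to -0.37 with each library left out. The family median minus that of all tested genes stayed within -0.05 to -0.00 in the morpholino comparison with each library left out. With progesterone in morphants it was -0.10, and it became -0.00 at a pseudocount of 0.1, -0.38 with no filter, -0.04 with median-ratio scaling, 0.00 rescaled, and -0.20 to -0.07 with each library left out. Against uninjected embryos it was -0.04, and it became 0.11 and -0.12 at pseudocounts of 0.1 and 5, -0.37 with no filter, 0.05 with median-ratio scaling, 0.10 rescaled, 0.06 scaled without the progesterone library of experiment 2, and -0.17 to 0.08 with each library left out.

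Ddx21 changed sign under several settings. With progesterone in morphants its -0.12 became 0.53 with median-ratio scaling, 0.41 rescaled, 0.54 scaled without the progesterone library of experiment 2, and -0.46 to 0.22 with each library left out. Against uninjected embryos its -0.25 became 0.51, 0.32 and 0.52 in that order, and -0.60 to 0.09 with each library left out, and for the morpholino in DMSO the range was -0.29 to 0.03. With each library left out, the morpholino comparison also gave -0.50 to 0.27 for ddx28, -0.11 to 1.23 for ddx31, -0.06 to 0.18 for ddx39aa (-0.02 without the 5 ng uninjected library), -0.33 to 0.08 for ddx39ab, -0.44 to 0.05 for ddx5 and -0.27 to 0.11 for dhx15, which was 0.03 with median-ratio scaling, with or without the progesterone library of experiment 2. With progesterone in morphants, ddx28 ranged from -0.07 to 0.43 and ddx41 from -0.17 to 0.33 (-0.09 without the DMSO library of experiment 1), and ddx43 was 0.06 with median-ratio scaling. Against uninjected embryos, DHX33 ranged from -0.58 to 0.30 and was 0.55 with median-ratio scaling, 0.40 rescaled and 0.69 scaled without the progesterone library of experiment 2. Ddx24 ranged from -0.53 to 0.02 and was 0.45, 0.29 and 0.42 under the same settings, ddx28 ranged from -0.32 to 0.45 (-0.18 without the progesterone library of experiment 2), and dhx57 from -2.94 to 0.04. The cause of these shifts was not tested. A block by experiment number on the 4 morpholino libraries left 0 genes and 0 helicases called and ddx21 at -0.12. The within-group differences of same-numbered libraries correlated at 0.0762 across genes, and the libraries were not treated as pairs. What same-numbered libraries share beyond the experiment label is not given. The unknown depth and 2 libraries a group limit all of these values.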

Other observations

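A few helicases had uneven values in the progesterone libraries or were close to 0. Dhx57 had 1.79 and 21 FPKM in progesterone-treated morphants, 7.40 and 14.5 FPKM in DMSO-treated morphants, and 15.3 and 27.1 FPKM in uninjected embryos. It lay above 26.6% and 91.7% of all tested genes in the 2 progesterone libraries. Dhx32a had 3.46 and 0.507 FPKM in progesterone-treated morphants. Dhx58, the zebrafish relative of the RNA sensor LGP2, was listed at 0 in both progesterone libraries, with 1.80 and 0.913 FPKM in DMSO-treated morphants and 1.68 and 0.973 FPKM in uninjected embryos. At these levels a listed 0 can be a failed estimate, and no fold is given. The second entry named ddx41 had 1.79 FPKM in the progesterone library of experiment 1, at most 0.198 FPKM in the other 5, and a different present name in the name table.

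The eif4a genes, the DEAD box factors of translation initiation and the exon junction that carry other names, lie outside the name rule. Eif4a1a had 173 and 108 FPKM in progesterone-treated morphants, 191 and 169 FPKM in DMSO-treated morphants, and 273 and 281 FPKM in uninjected embryos, and both morphant groups lay below the uninjected embryos. Its log2 fold change with progesterone in morphants was -0.39 ± 0.30 (SE, n = 2 against 2, limma adjusted p = 0.453), 0.19 above the median gene, and with the morpholino in DMSO it was -0.62 ± 0.30 (limma adjusted p = 1). Eif4a3, a core protein of the exon junction complex, had 73.4 and 47.6 FPKM in progesterone-treated morphants, 139 and 113 FPKM in DMSO-treated morphants, and 128 and 146 FPKM in uninjected embryos.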
